A study of Saccharomyces cerevisiae with 6 samples.

Results

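The 10 genes described here encode the enzymes that budding yeast uses to make isoleucine, valine and leucine, the branched-chain amino acids. They are ILV1 (YER086W), ILV2 (YMR108W), ILV6 (YCL009C), ILV5 (YLR355C), ILV3 (YJR016C), LEU4 (YNL104C), LEU9 (YOR108W), LEU1 (YGL009C), BAT1 (YHR208W) and BAT2 (YJR148W). They were chosen by pathway membership and matched by symbol to the authors' fold change table, where each had 1 probe set naming it alone, and they are 10 of 5420 genes tested. LEU2, whose enzyme works in the leucine branch, was not in the set and is described after it. Expression was measured in Saccharomyces cerevisiae strain DBY746, given in the labels as wild-type, on single-colour 3' expression arrays, 1 array for each of 6 cultures. The 3 control cultures received only the vehicle, ethanol at 0.3%, and the 3 myriocin cultures received the same amount of ethanol with 300 ng/ml myriocin, an inhibitor of serine palmitoyltransferase, which starts sphingolipid synthesis. Both groups were grown in SDC medium of pH 6 at 30 °C and collected at an A600 of 2, and the series design calls the replicates of each group biological. As background, DBY746 is a laboratory strain known for mutant alleles of LEU2, HIS3, TRP1 and URA3, so its leucine comes from the medium. What amino acids the medium held is not given in the sources used here.

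Synthesis of valine and isoleucine runs in the mitochondrion through a shared set of enzymes: acetohydroxyacid synthase (Ilv2 with its regulatory subunit Ilv6), the reductoisomerase Ilv5 and the dehydratase Ilv3. Threonine deaminase, Ilv1, makes from threonine the keto acid that enters that route towards isoleucine. Leucine branches off at the keto acid of valine, which Leu4 and Leu9 turn into isopropylmalate. That intermediate leaves the mitochondrion and is worked on in the cytosol by Leu1 and Leu2. The aminotransferases Bat1, in mitochondria, and Bat2, in the cytosol, add or remove the amino group of all 3 amino acids. The transcription factor Leu3, which isopropylmalate activates, and Gcn4, the general activator of amino acid synthesis genes, are known regulators of the pathway.

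With myriocin the genes of the pathway differed in direction. BAT2 and LEU1 rose, LEU9, ILV2, ILV1 and ILV5 fell, and ILV6, ILV3, LEU4 and BAT1 did not pass the test. The largest of these changes were in isozyme genes: BAT2 was 2.26-fold higher and LEU9 3.34-fold lower. The test was limma's, across all 5420 genes, with a Benjamini-Hochberg adjusted p under 0.05. It called 2 of 10 members higher, where 25.5% of all genes were higher, and 4 of 10 lower, where 28.8% were lower. In all, 6 of 10 members were called against 54.4% of all genes, so the count is near the background. The median log2 fold change of the 10 genes was -0.22, beside -0.03 over all genes tested. On the arrays themselves, myriocin and control values did not overlap for the 6 called members, against 66.4% of all genes. The authors' deposited table gave a p under 0.05 for 6 of 10 members, against 57.2% of the genes tested. The arrays read each transcript relative to the rest of the RNA, so less of a transcript per cell and more of other RNA cannot be told apart.

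**Figure D1:**
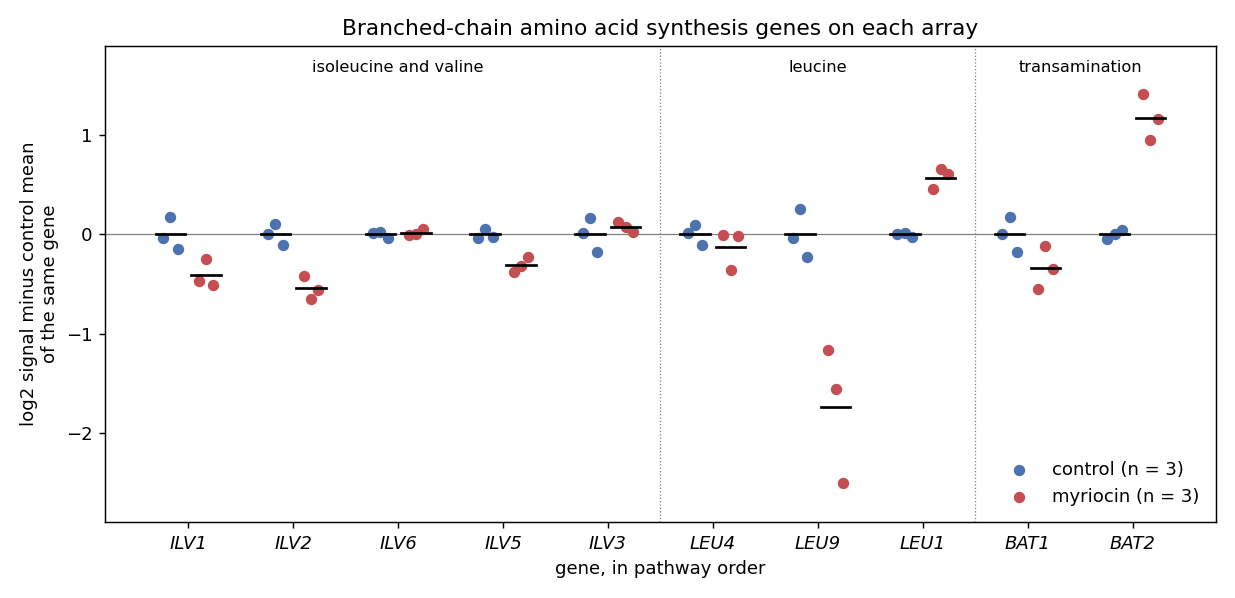
Log2 signal of each of the 10 genes on each of the 6 arrays, as the difference from the mean of the 3 control arrays for the same gene (y axis, log2 units). Points are arrays and black lines are group means. Myriocin points lie clear of the control points for ILV1, ILV2, ILV5 and LEU9 (lower) and for LEU1 and BAT2 (higher), and the LEU9 points are spread widely.

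These directions depend in part on how the arrays are scaled. The deposited values give the arrays near-equal medians, from 11.01 to 11.03 on the log2 scale. Over all genes the median SE of the change was 0.11. The 26 spike-in hybridisation control probe sets above background had a median log2 fold change of -0.25. Scaling the arrays to the mean of these controls adds 0.315 to every log2 fold change and moves the median of all genes from -0.03 to 0.29. On that scale 39.9% of genes were called higher and 12.0% lower, and among the members 3 were called higher and 1 lower. The 17 ribosomal RNA probe sets had a median log2 fold change of -1.61, and the 3' minus 5' difference of the ACT1 control probe sets was 0.04 to 0.12 in control arrays and -0.04 to 0.03 in myriocin arrays. The same difference overlapped between the groups for TDH1 (-0.08 to -0.04 in control arrays, -0.06 to -0.0069 in myriocin arrays) and for WBP1 (1.20 to 1.41 and 1.28 to 1.495). The part of these technical measures in the members' changes was not tested. Changes below are in the deposited values, and the value on the hybridisation-control scale is given where it changes a call or a sign. Every member value, from 8.94 to 14.45, lay far above the background ceiling of 2.07, the highest of 50 negative-control probe sets.

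ILV1 encodes threonine deaminase, which commits threonine to isoleucine. Its log2 signal was 12.49, 12.70 and 12.38 in the 3 control arrays and 12.05, 12.28 and 12.01 in the myriocin arrays. All 3 myriocin values were below the lowest control value, by a gap of 0.10. ILV1 fell by 0.41 (SE 0.12, n = 3 per group, limma adjusted p = 0.0259), which is 1.33-fold lower (95% interval 1.09 to 1.62). This call was among the least stable of the set: leaving out control replicate 1 ended it (limma adjusted p = 0.0547), as did leaving out control replicate 2 (0.0772), myriocin replicate 1 (0.0752) or myriocin replicate 3 (0.0784). It was lost too on the hybridisation-control scale, where the log2 fold change was -0.09 (limma adjusted p = 0.585).

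ILV2 and ILV6 encode the catalytic and the regulatory subunit of acetohydroxyacid synthase, the enzyme at the head of the shared route. ILV2 read 11.54, 11.64 and 11.43 in control arrays and 11.12, 10.88 and 10.97 with myriocin. The groups were separated by 0.31, more than the range within either group. ILV2 fell by 0.54 (SE 0.09, limma adjusted p = 0.00412), or 1.46-fold (95% interval 1.24 to 1.71), and stayed called without any 1 array (adjusted p from 0.00645 to 0.0186). On the hybridisation-control scale it was -0.23 and not called (limma adjusted p = 0.170). ILV6 read 13.69, 13.70 and 13.65 in control arrays and 13.67, 13.68 and 13.73 with myriocin, and these values interleave. Its log2 fold change was 0.02 (SE 0.06, limma adjusted p = 0.847), with a 95% interval of -0.14 to 0.17. Because both probe sets sit on the same array, their log2 ratio does not depend on a constant scaling of the array. That ratio, ILV2 over ILV6, was lower by 0.56 with myriocin (SE 0.09, n = 3 per group) and did not overlap between groups. An exact two-sided permutation test gave p = 0.1, the smallest that 3 arrays against 3 can give.

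ILV5 encodes the acetohydroxyacid reductoisomerase, known also for a role in keeping mitochondrial DNA. Control arrays read 14.36, 14.45 and 14.37, and myriocin arrays 14.01, 14.07 and 14.16. The shift was small but larger than the spread of either group. ILV5 fell by 0.31 (SE 0.07, limma adjusted p = 0.0132), 1.24-fold lower (95% interval 1.10 to 1.40), but turned to 0.0063 on the hybridisation-control scale (limma adjusted p = 0.971). Leaving out control replicate 2 also ended the call (limma adjusted p = 0.0553). ILV3 encodes the dihydroxyacid dehydratase, an iron-sulfur enzyme that makes the keto acids of valine and isoleucine. It read 12.69, 12.83 and 12.49 in control arrays and 12.79, 12.75 and 12.70 with myriocin, with the myriocin values inside the control range. The log2 fold change of ILV3 was 0.08 (SE 0.10, limma adjusted p = 0.554, 95% interval -0.17 to 0.32), and on the hybridisation-control scale it was 0.39 and called higher (limma adjusted p = 0.0263). Along the valine and isoleucine route, then, 3 of 5 genes fell and 0 rose in the deposited values, where 28.8% and 25.5% of all genes did. On the other scale 0 fell and 1 rose, where 12.0% and 39.9% of all genes did.

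The leucine branch held changes in opposite directions. LEU4 and LEU9 are paralogs for isopropylmalate synthase, with LEU4 known as the source of the main activity. LEU4 read 12.68, 12.76 and 12.56 in control arrays and 12.65, 12.31 and 12.65 with myriocin, and the groups overlap. Its log2 fold change was -0.13 (SE 0.12, limma adjusted p = 0.401, 95% interval -0.41 to 0.16), and it was 0.19 on the hybridisation-control scale (limma adjusted p = 0.272). LEU9 read 11.41, 11.70 and 11.22 in control arrays and 10.28, 9.89 and 8.94 with myriocin. Every myriocin array lay at least 0.94 below every control array, and myriocin replicate 3 was the lowest by far. LEU9 fell by 1.74 (SE 0.35, limma adjusted p = 0.00681), which is 3.34-fold lower with a wide 95% interval of 1.87 to 5.98. A lower log2 fold change than this was found for 130 of 5420 genes, or 2.40%. The SD of LEU9 among myriocin arrays, 0.69, exceeded that of 98.4% of genes, where the other members had SDs of 0.03 to 0.23 there. Without myriocin replicate 3 the log2 fold change was -1.36, and LEU9 stayed called without any 1 array (adjusted p from 0.00583 to 0.0277) and on the hybridisation-control scale (-1.43, limma adjusted p = 0.00311).

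The difference between the paralogs was measured on each array. LEU4 over LEU9, as a log2 ratio, was 1.62 higher with myriocin than in control arrays (SE 0.45, n = 3 per group), and the 3 myriocin arrays were all above the control arrays. The exact permutation p was 0.1, the smallest possible, and leaving out single arrays gave differences from 1.18 to 1.85. Whether either probe set also reads the paralog's transcript was not tested.

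LEU1 encodes isopropylmalate isomerase, the cytosolic iron-sulfur enzyme that follows. The control arrays were tightly grouped at 12.94, 12.95 and 12.91, and the myriocin arrays read 13.39, 13.59 and 13.54. The gap between the groups, 0.44, was larger than the range within either. LEU1 rose by 0.57 (SE 0.08, limma adjusted p = 0.00155), 1.49-fold higher (95% interval 1.31 to 1.69), and 17.4% of genes had a higher log2 fold change. It stayed called without any 1 array (adjusted p from 0.00284 to 0.00875) and on the hybridisation-control scale (0.89, limma adjusted p = 0.000487).

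**Figure D2:**
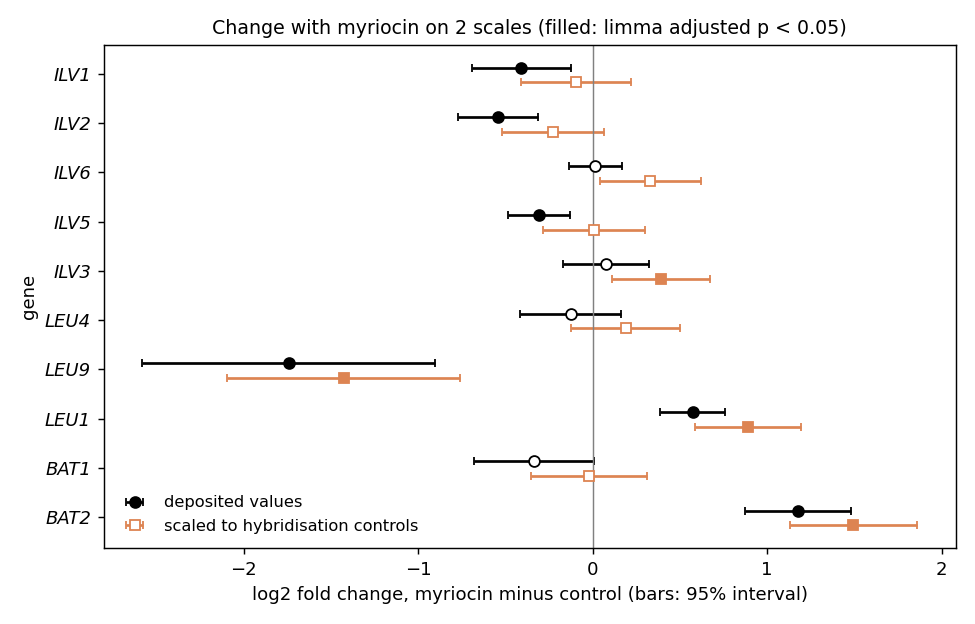
Log2 fold change of each gene, myriocin minus control (x axis, log2 units), with its 95% interval, in the deposited values (circles) and on the hybridisation-control scale (squares). Filled symbols passed limma's test. BAT2, LEU1 and LEU9 are filled on both scales, while ILV1, ILV2 and ILV5 are filled only in the deposited values and ILV3 only on the other scale.

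The aminotransferase genes form the final group. BAT1 encodes the mitochondrial enzyme, known for its part in synthesis and for high expression during growth. It read 13.59, 13.77 and 13.41 in control arrays and 13.04, 13.47 and 13.24 with myriocin. Myriocin replicate 2 lay above the lowest control, so the groups overlapped. The log2 fold change of BAT1 was -0.34 (SE 0.14, limma adjusted p = 0.0869, 95% interval -0.68 to 0.0066). Without myriocin replicate 2 it was -0.45 and called lower (limma adjusted p = 0.0443), and on the hybridisation-control scale it was -0.02 (limma adjusted p = 0.907). BAT2 encodes the cytosolic enzyme, known for its part in breakdown and for expression towards stationary phase. It read 11.82, 11.87 and 11.90 in control arrays and 13.28, 12.81 and 13.03 with myriocin. Here all myriocin arrays lay at least 0.91 above all control arrays. BAT2 rose by 1.18 (SE 0.13, limma adjusted p = 0.000755), 2.26-fold higher (95% interval 1.83 to 2.79), and 7.14% of genes had a higher log2 fold change. It stayed called without any 1 array (adjusted p from 0.00105 to 0.00486) and on the hybridisation-control scale (1.49, limma adjusted p = 6.4e-05).

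The ratio of the aminotransferase genes was read within each array. BAT1 over BAT2, as a log2 ratio, was lower by 1.52 with myriocin (SE 0.28, n = 3 per group), and the groups did not overlap. The exact permutation p was 0.1, the smallest possible here, and single arrays left out gave -1.74 to -1.29. Adjusted over the 3 gene pairs compared, each exact permutation p remained 0.1.

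**Figure D3:**
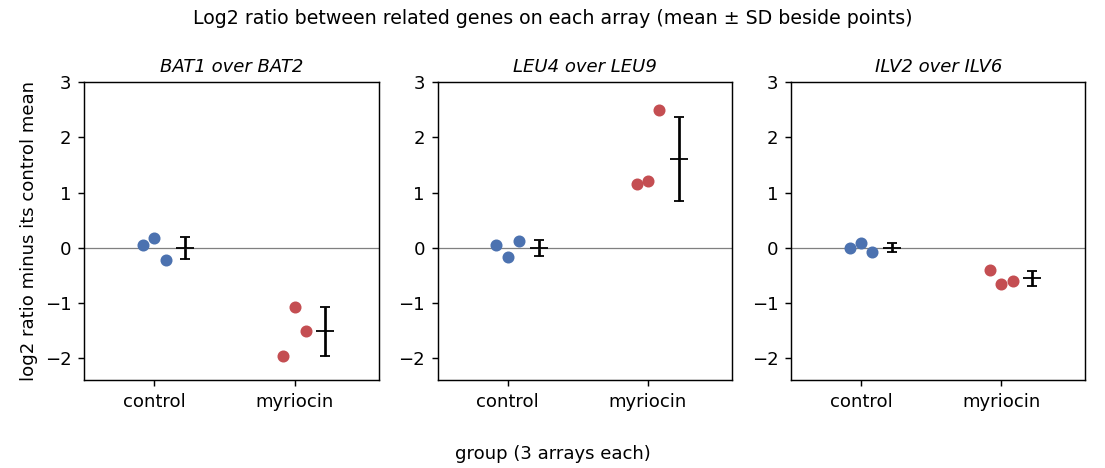
Log2 ratio between the signals of BAT1 and BAT2, LEU4 and LEU9, and ILV2 and ILV6 on each array, minus the mean ratio of the control arrays (y axis, log2 units), with mean ± SD of each group of 3 arrays beside the points. In all 3 pairs the myriocin arrays lie apart from the control arrays: lower for BAT1 over BAT2 and for ILV2 over ILV6, higher for LEU4 over LEU9.

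Other genes, related to the pathway or set beside it as a comparison, were read from 9 lists. Of their 81 measured genes 46 were called, 22 higher and 24 lower, near the 54.4% called among all genes. On the hybridisation-control scale 39 were called higher and 8 lower, where 39.9% and 12.0% of all genes were. In the deposited values the shares of all genes, to be set beside the counts of each list below, were 25.5% higher and 28.8% lower. With the replicate numbers taken as pairs, 1374 of all 5420 genes were called higher and 1471 lower. Among 7 genes working beside the members, 3 rose and 1 fell. OAC1 encodes the mitochondrial carrier that takes isopropylmalate out to Leu1. It read 10.73, 11.28 and 10.70 in control arrays and 7.88, 9.51 and 9.80 with myriocin, so all myriocin arrays were lower and replicate 1 lowest. OAC1 fell by 1.84 (SE 0.51, limma adjusted p = 0.0234), or by 1.25 without myriocin replicate 1, and the call was lost without control replicate 2 (limma adjusted p = 0.0750). LEU2, the isopropylmalate dehydrogenase gene and the mutant marker of this strain, read 11.31, 11.59 and 11.43 in control arrays and 10.60, 10.49 and 11.53 with myriocin. Myriocin replicate 3 lay among the controls. The log2 fold change of LEU2 was -0.57 (SE 0.28, limma adjusted p = 0.131), or -0.90 and called lower without myriocin replicate 3 (limma adjusted p = 0.00426). MPC3, a subunit of the mitochondrial pyruvate carrier, rose by 0.96 (limma adjusted p = 0.0132), while the subunit genes MPC1 and MPC2 had log2 fold changes of 0.06 and 0.01 (limma adjusted p = 0.590 and 0.905). HMF1 rose by 0.37 (limma adjusted p = 0.00365), as did MMF1, its mitochondrial relative known to be needed for isoleucine transamination, by 0.27 (limma adjusted p = 0.0280). The call of MMF1 ended when control array 1 or 2, or myriocin array 1 or 3, was left out (adjusted p from 0.0518 to 0.0901).

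Of the regulators, LEU3 read 8.84, 8.71 and 8.63 in control arrays and 8.93, 8.84 and 8.69 with myriocin, and the groups overlap. Its log2 fold change was 0.09 (limma adjusted p = 0.434), or 0.41 and called higher on the hybridisation-control scale (limma adjusted p = 0.0334). GCN4 read 14.59, 14.65 and 14.54 in control arrays and 14.71, 14.77 and 14.83 with myriocin, with no overlap. The log2 fold change of GCN4 was 0.18 (limma adjusted p = 0.0717), or 0.49 and called higher on that scale (limma adjusted p = 0.00912). Gcn4 is known to be set mainly by translation, which these arrays do not measure. Of 6 regulator genes 0 rose and 1 fell in the deposited values, while 4 rose and 0 fell on that scale. ASC1, a ribosome-bound protein listed under its alias CPC2, fell by 0.26, turning to 0.06 on that scale. Its call (limma adjusted p = 0.0235) ended when control array 1 or 2, or myriocin array 1 or 3, was left out (0.0526 to 0.0802).

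Threonine, the substrate of Ilv1, comes from aspartate through the Hom and Thr enzymes. HOM3, the aspartate kinase gene at the head of that route, read 12.61, 12.67 and 12.49 in control arrays and 10.51, 11.18 and 11.09 with myriocin. HOM3 fell by 1.66 (SE 0.18, limma adjusted p = 0.000832), and THR1, the homoserine kinase gene, by 0.36 (limma adjusted p = 0.0229). THR1 was not called when control array 2 or myriocin array 1 or 3 was left out (limma adjusted p from 0.0644 to 0.0764), nor on the hybridisation-control scale (-0.05, limma adjusted p = 0.789). HOM2, the next enzyme's gene, fell by 0.22 (limma adjusted p = 0.0284) but turned to 0.10 on that scale. It was also not called with the replicate numbers as pairs (limma adjusted p = 0.0593) or without any 1 array but myriocin replicate 3 (0.0614 to 0.0955). In the opposite direction, CHA1, the catabolic deaminase of serine and threonine, read 10.31, 9.61 and 10.49 in control arrays and 15.20, 14.87 and 14.96 with myriocin. CHA1 rose by 4.88 (SE 0.24, limma adjusted p = 9.3e-05), or 29.4-fold, while the biosynthetic deaminase gene ILV1 changed as given above. Of 7 genes of threonine synthesis and use, 1 rose and 3 fell, against 2 and 1 on the hybridisation-control scale.

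Genes of the uptake list changed in both directions, 6 of 10 higher and 3 lower, or 7 and 2 on the hybridisation-control scale. The list holds permease genes and genes of the amino acid sensor with its transcription factors. Of the permease genes only AGP1 was called higher in the deposited values, while BAP2, TAT1 and GNP1 were called lower. The other genes called higher there were of the sensor or its transcription factors. Of all genes 25.5% were higher and 28.8% lower, or 39.9% and 12.0% on that scale. BAP2, the permease of branched-chain amino acids, read 13.28, 13.11 and 12.62 in control arrays and 11.19, 11.36 and 11.70 with myriocin, and fell by 1.59 (limma adjusted p = 0.00145). TAT1, a permease for valine, leucine, isoleucine and tyrosine, fell by 2.18 (limma adjusted p = 0.000495). AGP1, a permease of broad range, rose by 1.44 (limma adjusted p = 0.00136), and STP1, a transcription factor of the amino acid sensor that acts on such permease genes, by 1.61 (limma adjusted p = 0.00187).

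Among genes of the Ehrlich pathway, which turns branched-chain and aromatic amino acids into fusel alcohols, 6 of 11 rose and 0 fell, with a median log2 fold change of 0.58, where 25.5% of all genes rose. On the hybridisation-control scale 9 were called higher and 0 lower, with a median of 0.90, where 39.9% of all genes were higher. ARO10, the decarboxylase of the keto acids, read 4.51, 5.03 and 4.82 in control arrays and 7.89, 7.34 and 6.65 with myriocin. ARO10 rose by 2.51 (SE 0.32, limma adjusted p = 0.00131), its activator gene ARO80 by 1.99 (limma adjusted p = 2.55e-05) and the aminotransferase gene ARO9 by 1.24 (limma adjusted p = 0.00984). ATF1, which makes acetate esters of the alcohols, rose by 1.16 (limma adjusted p = 0.00864). BAT2, whose enzyme can start the breakdown of the branched-chain amino acids, is counted among the members and not here.

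**Figure D4:**
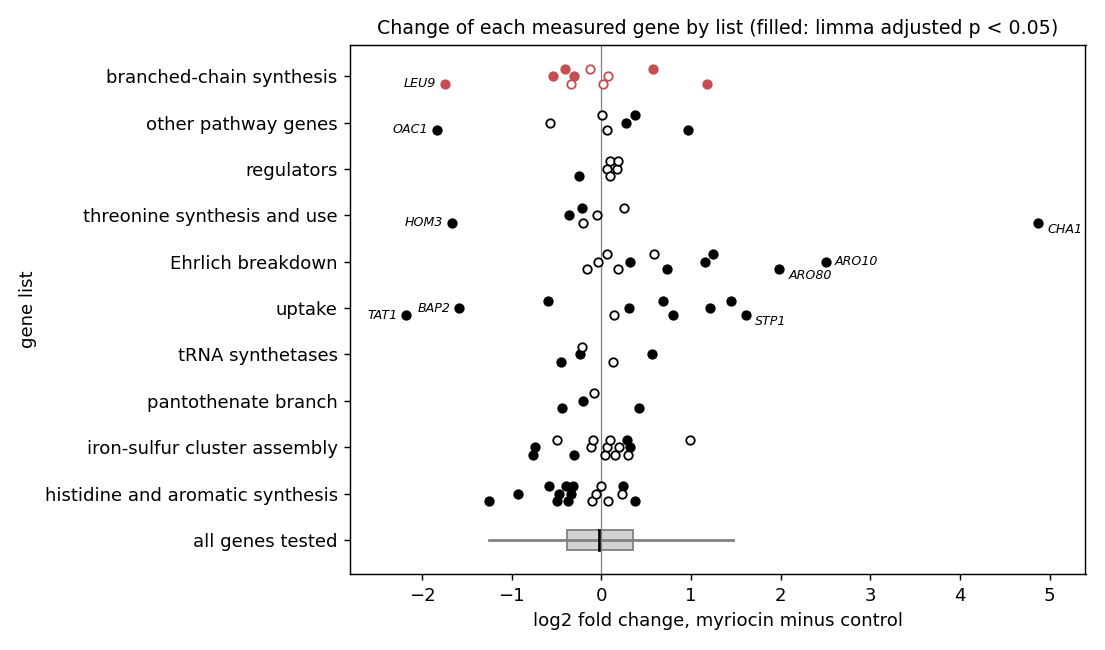
Log2 fold change, myriocin minus control (x axis, log2 units), of each measured gene of the 10 members and of the other 9 lists. Each point is a gene, filled where limma's test was passed, and names are given beyond 1.5 log2 units. The grey box and line at the bottom span the middle 50% and 90% of all 5420 genes. LEU9 is the member farthest from 0, and CHA1 rose most among the listed genes.

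Genes that use the products were read too. Among tRNA synthetase genes for the 3 amino acids 1 of 5 rose and 2 fell, against 1 and 1 with the replicate numbers as pairs and 2 and 0 on the hybridisation-control scale. CDC60, the cytosolic leucine enzyme, fell by 0.45 (limma adjusted p = 0.00724; -0.14 and not called on the hybridisation-control scale, adjusted p = 0.411), and ILS1, the cytosolic isoleucine enzyme, by 0.24 (limma adjusted p = 0.0363), turning to 0.07 on that scale. ILS1 was not called with the replicate numbers as pairs (limma adjusted p = 0.0776) or without any 1 array but myriocin replicate 1 (0.0554 to 0.118). NAM2, the mitochondrial leucine enzyme, rose by 0.56 (limma adjusted p = 0.00761). Pantothenate synthesis draws on the keto acid of valine, and of its 4 genes 1 rose and 2 fell. With the replicate numbers as pairs 0 were higher and 1 lower, and on the hybridisation-control scale 1 was higher and 0 lower. PAN6, the pantothenate synthase gene, fell by 0.44 (limma adjusted p = 0.00491; -0.13 on the hybridisation-control scale, adjusted p = 0.447). PAN5, of the step before it, fell by 0.21 (limma adjusted p = 0.0420), turned to 0.11 on that scale and was called neither with the pairs (limma adjusted p = 0.0796) nor without any 1 array (0.0603 to 0.117). FMS1, which supplies beta-alanine, the other precursor, rose by 0.42 (limma adjusted p = 0.0266). It was not called with the pairs (limma adjusted p = 0.0587), nor with control array 1 or 2, or myriocin array 1 or 3, left out (0.0544 to 0.0788).

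Ilv3 and Leu1 carry iron-sulfur clusters. Of 15 assembly genes 2 rose and 3 fell, where 25.5% and 28.8% of all genes did, with a median log2 fold change of 0.06. On the hybridisation-control scale 7 rose and 2 fell, where 39.9% and 12.0% of all genes did. With the replicate numbers as pairs 2 rose and 4 fell. IBA57, of mitochondrial cluster assembly, fell by 0.76 (limma adjusted p = 0.00130) and CFD1, of cytosolic assembly, by 0.74 (limma adjusted p = 0.00138). NFS1, the cysteine desulfurase gene, rose by 0.32 (limma adjusted p = 0.0215), but was not called when array 1 or 3 of either group was left out (0.0541 to 0.0646). GRX5, a glutaredoxin of the same machinery, fell by 0.31 (limma adjusted p = 0.0344), turning to 0.0092 on the hybridisation-control scale. Leaving out any array other than control replicate 1 ended that call (limma adjusted p from 0.0556 to 0.0943).

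Histidine and aromatic amino acid synthesis, other known targets of Gcn4, served as a comparison. Of 16 measured genes 2 rose and 9 fell, where 25.5% and 28.8% of all genes did. Their median log2 fold change was -0.33, where the branched-chain genes had -0.22 and all genes tested -0.03. On the hybridisation-control scale 4 rose and 2 fell, where 39.9% and 12.0% of all genes did. TRP4, of tryptophan synthesis, fell by 1.26 (limma adjusted p = 0.000215) and HIS1, of the first step of histidine synthesis, by 0.93 (limma adjusted p = 0.00157). ARO7 and ARO4, of the aromatic route, fell by 0.59 and 0.50 (limma adjusted p = 0.00468 and 0.00705), and neither was called on that scale (adjusted p = 0.139 and 0.279). A difference between this list and the branched-chain genes was not tested.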

How the data were processed

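Each deposited value is the log2 signal of a probe set as processed by the authors. Partek is named in the submitters' processing notes, and the normalisation method is not given in the sources used here. The log2 scale was checked against the ratio column of the authors' deposited fold change table, whose log2 equals differences of group means to within 8.48e-05. The authors' p-value per probe set comes from the same deposited table.

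Of 5900 probe sets, 184 were controls, 5445 named 1 gene, 79 several and 192 none. Names came from the platform annotation, updated through RefSeq assembly R64, or from the fold change table (24). Names found only in the authors' lists of changed genes were not used. The brightest probe set stood for each gene, leaving 5420 genes. The test was limma 3.58.1 (R 4.3.3), two-sided, with no covariate or filter, and the script was tested on simulated data. The number of arrays limits the precision. Intervals are limma's 95% intervals.

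The members and lists were chosen with earlier results of these data known. All members are named, with called genes of lists of up to 8 measured genes, the 4 largest called changes of longer lists, and LEU2, LEU3, GCN4 and OAC1. MPC1 and MPC2 are given beside MPC3, chosen after their values were seen. TRP1 was not analysed here. Promoter motifs were not analysed here.

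Same-numbered control and myriocin samples deviated together across genes (correlations 0.169, 0.233 and 0.175), so the labels' replicate numbers were taken as pairs in an alternative fit. Pairs of genes were compared by exact permutation tests of their log2 ratio. Alternatives were quantile normalisation, equal medians, hybridisation-control scaling, the dimmest 25% left out, probe set means, an intensity trend with robust variance, pairing, each array left out, an equal-variance test and, added after seeing the data, all probe sets tested. Figures used matplotlib 3.10.9.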

Additional observations from a re-analysis of the deposited data

How the results depend on the processing

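The count of branched-chain genes called higher was 2 in every setting run, other than 3 on the hybridisation-control scale. With that scaling 1 was called lower, the median of the 10 genes turned to 0.10, and 2164 of all genes were called higher and 651 lower, beside 1384 and 1562. By its constant shift the same scaling turned the sign of the called genes ILV5 (0.0063), ASC1 (0.060), HOM2 (0.10), ILS1 (0.071), PAN5 (0.11) and GRX5 (0.0092). It also turned the sign of LEU4 (0.19), which was not called on either scale. Leaving out single arrays gave 2 to 5 members called lower, with 2 without control replicate 2, medians of the members from -0.26 to -0.16, 1101 to 1274 genes called higher and 1176 to 1401 lower. With the replicate block 2 of 10 members were called higher and 4 lower, where 1374 of all 5420 genes were higher and 1471 lower. Among named genes the block ended the calls of HOM2, ILS1, PAN5, FMS1 and PDC6 and changed no other. The equal-variance test ended the calls of ILV1, OAC1, MPC3, FMS1 and GRX5 (adjusted p = 0.0610, 0.0780, 0.0520, 0.0635 and 0.0596), and quantile normalisation that of MMF1 (0.0544). GCN4 was called higher with quantile normalisation, with the intensity trend and by the equal-variance test (adjusted p = 0.0367, 0.0192 and 0.0423). The gene pair ratios kept their direction with quantile normalisation and without any 1 array. The other settings run for them could not change their direction. Equal medians and hybridisation-control scaling shift each array by a constant, each member has 1 probe set, and pairing leaves the mean difference as it is. A paired permutation test cannot give a p under 0.25 here. The filter on dim genes and the variance and test alternatives do not apply to these ratios. With 3 arrays a group, the intervals limit what can be told from 0.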

Other observations

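Further called genes of the uptake list, named here after their values were seen, belong to the sensor of outside amino acids at the plasma membrane. The sensor genes SSY1, PTR3 and SSY5 rose by 0.80, 1.21 and 0.68 (limma adjusted p = 0.00398, 0.00636 and 0.00745), and STP2, a transcription factor it releases, by 0.31 (limma adjusted p = 0.0181), a call that ended when array 2 or 3 of either group was left out (up to 0.0608). Permease genes known as targets of the sensor differed in direction. AGP1 rose, and BAP2 and TAT1 fell. BAP3 was not called (log2 fold change 0.14, limma adjusted p = 0.514), but was called higher on the hybridisation-control scale (0.45, limma adjusted p = 0.0415). GNP1, a glutamine permease gene, fell by 0.60 (limma adjusted p = 0.00799), a call not made on that scale (-0.28, limma adjusted p = 0.139). SFA1, an alcohol dehydrogenase gene of the Ehrlich pathway, rose by 0.74 (limma adjusted p = 0.00213). PDC6, also of that list and also named after its values were seen, rose by 0.31, from a low mean signal of 3.77 to 4.08 (limma adjusted p = 0.0299). The call of PDC6 was not made with the replicate numbers as pairs (limma adjusted p = 0.0536) or without any 1 array but myriocin replicate 1 (up to 0.0906).

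In histidine and aromatic synthesis TRP5 and HIS3 were the genes that rose, by 0.38 and 0.24 (limma adjusted p = 0.00642 and 0.0462). Like LEU2, HIS3 is a mutant marker of this strain. The call of HIS3 ended without any array other than myriocin replicate 3 (up to 0.125). HIS2 had a log2 fold change of 0.23 with no overlap between groups (limma adjusted p = 0.0587), or 0.55 and called higher on the hybridisation-control scale (limma adjusted p = 0.0138). NAR1, of cytosolic iron-sulfur cluster assembly, had the highest log2 fold change of its list, 0.99, with a wide SE of 0.36 (limma adjusted p = 0.0566), and was called without control replicate 1 (0.0423). On the hybridisation-control scale NAR1 was 1.30 and called higher (limma adjusted p = 0.00258).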
